A study of Mus musculus with 57 samples.

Results

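Ventral midbrain (VMB) expression was compared between mice that drank much ethanol and mice that drank little. The comparison used 17 of the 57 arrays in the series, 10 from high-drinking mice and 7 from low-drinking mice. High drinkers took in more than 7 g/kg/18 h of ethanol on average and low drinkers less than 2 g/kg/18 h. The sample labels do not hold intake. Group membership was read from the study's published plot of intake per mouse and joined to the arrays by the number in each array's title, taken as the mouse number. The VMB arrays of mice 3 and 10, whose intake lay between those limits, were left out.

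All mice were young males of the inbred strain C57Bl/6NCrl, so that high and low drinkers had the same genetic background. Each animal could choose between 10% (w/v) ethanol and tap water for 18 h a day, in 16 sessions given in rounds of 4 with abstinence between rounds. Tissue was taken 6 days after the final session from VMB, nucleus accumbens (NAc) and prefrontal cortex (PFC), and each region of each mouse went to 1 Affymetrix mouse expression array. Both groups had access to ethanol and no group without ethanol was measured, so a difference between high and low drinkers may precede drinking or follow it, and these cannot be told apart. The labels call the tissue ventral tegmental area, and the study's methods describe it as a wider piece of ventral midbrain that includes this area.

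The ventral tegmental area holds dopamine neurons that project to the nucleus accumbens and the prefrontal cortex. Ethanol raises the firing of these neurons and the release of dopamine in the accumbens, and GABA neurons of the same area inhibit them. Dopamine is made from tyrosine by tyrosine hydroxylase (*Th*) and aromatic amino acid decarboxylase (*Ddc*), and it is taken back up by the dopamine transporter (*Slc6a3*). The question put to the data was which transcripts of this region differed between mice at the opposite ends of voluntary intake.

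Levels are given as Robust Multichip Average (RMA) values, a log2 scale on which a difference of 1 is a doubling of signal. The VMB arrays carried the transcripts of a dopaminergic region. *Slc6a3* had a mean of 9.03 ± 0.24 (SD, n = 17) in VMB, against 4.77 ± 0.16 (n = 17) in NAc and 3.91 ± 0.13 (n = 16) in PFC of mice from the same intake groups. *Th* had a mean of 8.13 in VMB, 6.57 in NAc and 4.53 in PFC. *Tbr1*, which marks glutamatergic neurons of the cortex, had a mean of 3.02 in VMB and 7.85 in PFC. Regions appear to have been normalized apart from one another, so these levels across regions are approximate. The VMB arrays had nearly the same profile, with correlations across probesets between 0.981 and 0.997 over 136 pairs of arrays (median 0.992).

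Transcripts of neighbouring tissue varied widely from one VMB array to the next. *Gabra6*, the GABA-A receptor subunit of cerebellar granule cells, ranged from 3.41 to 7.87 in high drinkers with a median of 6.27, and from 3.73 to 8.44 in low drinkers with a median of 6.42. *Pcp2*, a Purkinje cell gene, ranged from 4.62 to 8.71 in high drinkers and from 5.18 to 9.49 in low drinkers. Both were highest in low-drinking mouse 14, and the groups overlapped almost fully. In NAc, *Gabra6* ranged only from 3.65 to 3.96. Over 10 cerebellar genes the mean level ran from 6.10 to 7.64 in high drinkers and from 6.11 to 8.08 in low drinkers, and no gene of the list was under 4.5 on average. *Ttr*, the transthyretin gene of the choroid plexus, reached 12.6 in low-drinking mouse 6, while the next highest array was at 8.29. *Gh*, the pituitary growth hormone gene, was highest in high-drinking mouse 4 at 7.25, with the next at 6.37.

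The arrays of mice 1 to 7 (4 high, 2 low) also stood apart from those of mice 8 and above (6 high, 5 low). When limma estimated a weight for each array from its residual scatter, mice 1 to 7 received weights of 0.34 to 0.73 and the other mice 0.97 to 2.42. A single probeset of the beta-actin gene *Actb* lay between 10.0 and 11.4 in mice 1 to 7 and between 8.29 and 9.42 in the others, with no overlap. The brightest *Actb* probeset showed no such split, at 12.7 to 12.9 over all 17 arrays. On the probeset with the split, high drinkers spanned 8.70 to 11.4 and low drinkers 8.29 to 11.1, so both kinds of array occurred in both intake groups. The labels give no batch, and the part of this split in the results was not tested beyond the values given with and without these mice. The first principal component held 32.8% of the variance and the second 22.5%. Over all 17 arrays, high and low drinkers did not differ detectably on either (two-sided exact permutation p = 0.543 and 0.858).

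**Figure D1:**
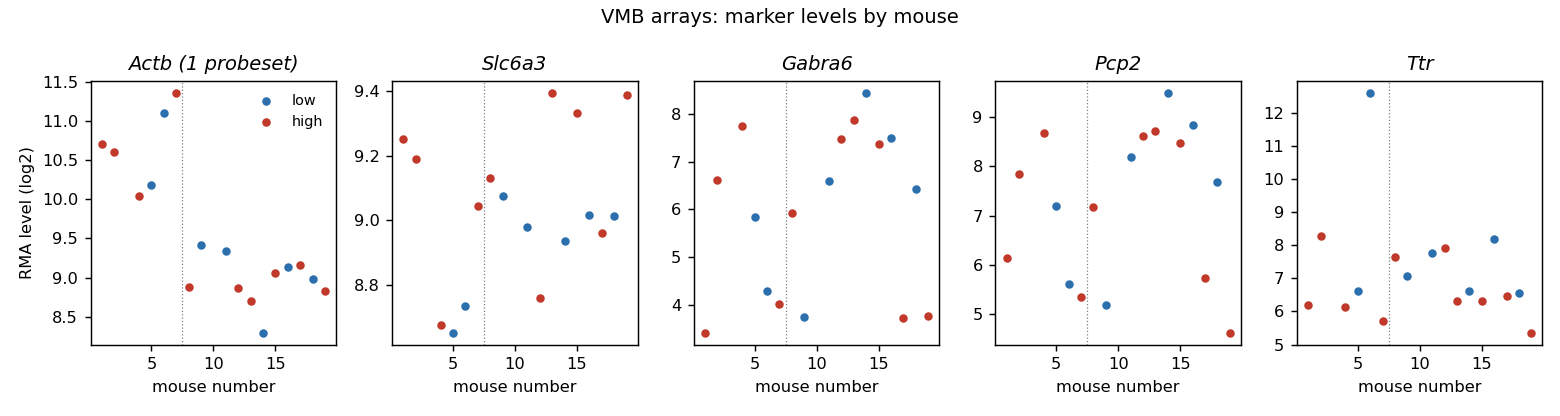
RMA levels (log2) of 5 probesets in each VMB array, plotted against mouse number, with high drinkers in red and low drinkers in blue; the dotted line lies between mice 7 and 8. The Actb probeset is above 10.0 on each array of mice 1 to 7 and at most 9.42 on the others, Gabra6 and Pcp2 vary from array to array in both groups, and Ttr stands out in mouse 6.

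No transcript in VMB differed between high and low drinkers after correction for multiple testing. Of 19815 probesets tested with limma, 0 had an adjusted p under 0.01 (0% of those tested), and 0 had one under 0.05 or under 0.10. The smallest adjusted p was 0.9999. At an unadjusted p under 0.05 there were 287 probesets, 98 higher in high drinkers (0.495%) and 189 lower (0.954%), or 1.45% in all. Uniform p-values would put 5% of the probesets there. An unadjusted p under 0.01 was reached by 20 probesets (0.101%). Of all probesets, 0 had every high drinker above every low drinker, and 1 had every high drinker below every low drinker (0.00505%). That probeset has no gene symbol in the annotation used, and its ranges were separated narrowly, 5.09 to 5.34 in high drinkers and 5.35 to 5.54 in low drinkers.

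The precision of the comparison sets how far this result goes. The median 95% confidence interval reached 0.17 on the log2 scale to either side of the difference, about as wide as the median within-group SD of 0.17. For 19151 probesets (96.6%) the whole interval lay within 0.5 of 0, and for 19792 (99.9%) within 1. A 2-fold difference was therefore outside the interval for nearly all probesets. Differences smaller than the reach of the interval were not detectable with this number of mice. Larger ones could also go uncalled, because the interval is not adjusted for multiple testing and the calls were. *Cplx3*, at -0.41, had an adjusted p of 0.9999 by limma. Only 7 probesets had a difference over 0.5 in size, and these belonged to 3 genes. They were 3 probesets of *Ttr*, 3 of *Malat1* and 1 of *Epm2aip1*, which differed by 0.54 (95% interval -0.15 to 1.23). All comparisons below are of bulk tissue, in which fewer cells of a type and less RNA per cell cannot be told apart.

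The genes of dopamine synthesis and uptake had means slightly above those of low drinkers, within the spread of the mice. *Slc6a3* ran from 8.68 to 9.39 in high drinkers with a median of 9.16, and from 8.65 to 9.07 in low drinkers with a median of 8.98. In 6 of 10 high drinkers it was above the highest low drinker, and the other 4 lay within the range of the low drinkers. The difference was 0.20 (95% interval -0.02 to 0.41; two-sided exact permutation p = 0.0882). *Ddc* ran from 8.84 to 9.46 with a median of 9.23 in high drinkers and from 8.81 to 9.23 with a median of 9.06 in low drinkers, a difference of 0.17 (-0.01 to 0.35; exact permutation p = 0.0682). *Th* differed by 0.13 (-0.07 to 0.33; exact permutation p = 0.205). For these genes the intervals still allowed a difference of up to 0.41, 0.35 and 0.33. *Slc18a2*, the vesicular monoamine transporter, had no tested probeset of its own.

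*Drd2*, the D2 receptor that also serves as the autoreceptor of dopamine neurons, had the opposite sign. It ran from 5.38 to 6.00 in high drinkers with a median of 5.61, and from 5.51 to 6.23 in low drinkers with a median of 5.72, and the groups overlapped over most of their range. The difference was -0.14 (-0.36 to 0.08; exact permutation p = 0.218), and -0.07 without low-drinking mouse 9. Of 21 tested genes of dopamine neurons, which include the transcription factors that specify them, 12 had a difference above 0 and 9 below 0, and 0 reached an unadjusted p under 0.05. The background over 11342 genes at 1 probeset each was 0.388% higher and 1.01% lower, 1.4% in all, with 42.2% of differences above 0. The median difference of the dopamine list was 0.03, beside -0.01 over all genes. Its ends were *Otx2* at -0.26 and *Foxa1* at 0.23, both transcription factors of the developing midbrain. *Otx2* is also a choroid plexus gene, and without mouse 6 its difference was -0.26 (p = 0.0806 by limma). The mean level of the dopamine list ran from 6.03 to 6.25 in high drinkers and from 6.07 to 6.21 in low drinkers, nearly the same range.

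Markers of the other VMB neurons also had overlapping ranges in high and low drinkers. *Gad1*, a GABA-synthesising enzyme, ran from 10.6 to 10.9 in high drinkers and from 10.5 to 10.9 in low drinkers, and the difference was 0.01 (-0.15 to 0.17; exact permutation p = 0.870). *Slc17a6*, the vesicular glutamate transporter of subcortical neurons, differed by -0.09 (-0.25 to 0.08; exact permutation p = 0.319). Of 9 genes of midbrain GABA neurons, 4 had a difference above 0 and 5 below 0, and the median was -0.01. *Bdnf*, a neurotrophin, differed by -0.02 (-0.17 to 0.12; exact permutation p = 0.715), and *Rab3a*, a small GTPase of synaptic vesicles, by 0.01 (-0.14 to 0.17; exact permutation p = 0.843). The groups overlapped for each of these genes, and on these probesets none of the intervals reached further than -0.25 or 0.17. A second probeset had wider intervals for *Gad1* (0.07, -0.26 to 0.39) and *Slc17a6* (0.06, -0.38 to 0.49). The second *Bdnf* probeset gave -0.10 (-0.24 to 0.04).

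Within the lists of transmitter and peptide receptors, *Htr3b* had the smallest p. It encodes a subunit of the serotonin-gated 5-HT3 channel. It ran from 3.66 to 4.06 in high drinkers with a median of 3.85, and from 3.92 to 4.56 in low drinkers with a median of 4.05. In 8 of 10 high drinkers it was below the lowest low drinker. The difference was -0.23 (-0.40 to -0.06; exact permutation p = 0.00324), with an adjusted p of 0.9999 by limma. The highest low drinker was mouse 6, the only array of the 17 above 4.5, the level used to filter dim probesets. Without mouse 6 the difference was -0.15 (p = 0.0240 by limma). On average 8 of the 20 nicotinic and serotonin receptor genes tested were under 4.5. Of these 20 genes *Htr3b* was the only one with an unadjusted p under 0.05, and 10 had a difference above 0 and 10 below 0. Among 12 GABA-A and GABA-B receptor genes, 14 glutamate receptor genes, 27 neuropeptide and neuropeptide receptor genes and 10 potassium channel genes, 0 reached that level. Their medians were -0.02, 0.01, -0.02 and -0.02. The largest differences among them belonged to *Gabrd* (-0.35, 95% interval -0.90 to 0.20) and *Gabra6* (-0.32, -1.95 to 1.30), both expressed in cerebellar granule cells.

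**Figure D2:**
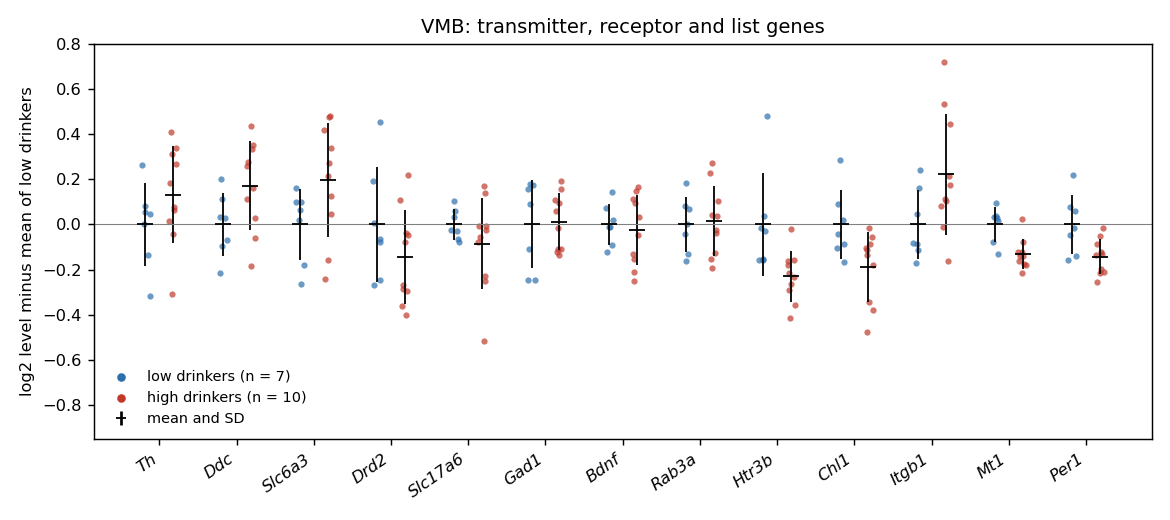
Levels in VMB of 13 genes in each mouse, as the log2 level minus the mean of the low drinkers, with points for single mice and black marks for the mean and SD of each group (n = 7 low and 10 high). The groups overlap for each gene shown; Slc6a3, Ddc and Th have higher means in high drinkers, and Htr3b, Mt1 and Per1 lower means.

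The 10 genes with the smallest p among those higher in high drinkers were *Malat1*, *Gdpd2*, *Clgn*, *Wnk1*, *Wipi1*, *Fgfrl1*, *Ift122*, *Pde1a*, *Snrpd3* and *Clk4*. Because rank decided which genes are named, their p-values are no independent evidence. Each had an adjusted p of 0.9999 by limma. *Malat1*, a long noncoding RNA retained in the nucleus, ran from 5.01 to 5.45 in high drinkers with a median of 5.26, and from 4.64 to 5.18 in low drinkers with a median of 4.96. In 6 of 10 high drinkers it was above the highest low drinker, and all 10 were above the median of the low drinkers. The difference was 0.29 (0.12 to 0.46; exact permutation p = 0.00345). The other *Malat1* probesets gave the same sign. All 5 had a difference above 0 and 3 had an unadjusted p under 0.05, with differences of 0.70 and 0.66 on the pair that also ranked among the largest of the array. On the first of that pair high drinkers ran from 4.75 to 6.79 and low drinkers from 4.61 to 5.29, so that the high drinkers spread far more widely.

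Of the remaining higher genes, *Clk4* and *Snrpd3* belong to RNA splicing, the first as a kinase of SR splicing factors and the second as a core protein of the spliceosome. *Clk4* ran from 5.52 to 6.67 in high drinkers (median 5.89) and from 5.46 to 5.98 in low drinkers (median 5.62), a difference of 0.35 (exact permutation p = 0.0298). *Snrpd3* differed by 0.23 (exact permutation p = 0.0259), but its 3 probesets disagreed, with 2 above 0 and 1 below. *Wnk1*, a kinase that regulates cation-chloride cotransporters, ran from 6.15 to 6.76 (median 6.58) against 5.62 to 6.57 (median 6.22) and differed by 0.35 (exact permutation p = 0.0128). A brighter *Wnk1* probeset, with means of 10.3 and 10.2, gave 0.06 (-0.07 to 0.20). *Pde1a*, a calmodulin-dependent phosphodiesterase, ran from 4.30 to 5.25 (median 4.72) against 4.26 to 4.70 (median 4.32) and differed by 0.31 (exact permutation p = 0.0304). In 9 of 10 high drinkers each of these 4 genes was above the median of the low drinkers, yet the ranges overlapped.

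The other 5 genes differed by 0.30 or less. *Clgn*, a chaperone of the endoplasmic reticulum, differed by 0.30 (exact permutation p = 0.0125), while its other probeset was at -0.06. *Wipi1*, an autophagy protein, differed by 0.22 (exact permutation p = 0.0114) on 1 of 5 probesets, and its 4 others were below 0. *Gdpd2*, a glycerophosphodiester phosphodiesterase, differed by 0.19 (exact permutation p = 0.00447), and 7 of 10 high drinkers were above the highest low drinker. *Fgfrl1*, a fibroblast growth factor receptor that lacks a kinase domain, differed by 0.16 (exact permutation p = 0.00206), with 6 of 10 high drinkers above the highest low drinker. *Ift122*, a protein of transport in cilia, differed by 0.16 (exact permutation p = 0.0112).

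The 10 genes with the smallest p among those lower in high drinkers were *Cplx3*, *Hdgfl2*, *Ubac2*, *Tab1*, *Cenpm*, *Mapk11*, *Tmem179b*, *Sostdc1*, *Arhgef18* and *Nat1*, again with adjusted p of 0.9999 by limma. *Cplx3*, a complexin that binds the SNARE complex of synaptic vesicles, had the smallest limma p of them. It ran from 4.61 to 5.23 in high drinkers with a median of 4.77, and from 4.92 to 5.76 in low drinkers with a median of 5.14. In 8 of 10 high drinkers it was below the lowest low drinker. The difference was -0.41 (-0.63 to -0.19; exact permutation p = 0.00165), a ratio of 1.33 between low and high drinkers. With each array left out in turn the difference stayed between -0.46 and -0.32.

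*Hdgfl2*, a chromatin-binding protein of the hepatoma-derived growth factor family, ran from 5.47 to 5.79 in high drinkers (median 5.63) and from 5.66 to 5.96 in low drinkers (median 5.87). All 10 high drinkers were below the median of the low drinkers, and the difference was -0.22 (exact permutation p = 0.00108). Its other probesets gave 0.01 and -0.07, so the difference was seen on 1 of 3. *Ubac2*, a ubiquitin-associated protein of the endoplasmic reticulum, ran from 6.45 to 6.67 (median 6.53) against 6.63 to 6.91 (median 6.67) and differed by -0.17 (exact permutation p = 0.00129). In 8 of 10 high drinkers it was below the lowest low drinker. The other *Ubac2* probeset gave -0.04 (-0.17 to 0.09).

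*Tab1* and *Mapk11* belong to stress-activated kinase signalling, the first as an activator of the kinase TAK1 and the second as the beta form of p38. *Tab1* ran from 5.86 to 6.19 in high drinkers (median 6.05) and from 6.04 to 6.44 in low drinkers (median 6.27), a difference of -0.19 (exact permutation p = 0.00519). *Mapk11* ran from 5.52 to 6.10 (median 5.72) against 5.77 to 6.30 (median 5.96), a difference of -0.27 (exact permutation p = 0.0117). The other *Mapk11* probeset gave -0.05 (-0.26 to 0.17). In 5 and 6 of 10 high drinkers, respectively, these genes were below the lowest low drinker. *Cenpm*, a centromere protein, differed by -0.20 (exact permutation p = 0.00494), *Arhgef18*, a guanine nucleotide exchange factor, by -0.17 (exact permutation p = 0.00545), and *Nat1*, an arylamine acetyltransferase, by -0.23 (exact permutation p = 0.0148). *Tmem179b*, a membrane protein, differed by -0.22 (exact permutation p = 0.00612) on 1 of 3 probesets, the other two being above 0.

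*Sostdc1*, a secreted antagonist of BMP and Wnt signals, is also a gene of the choroid plexus. It ran from 4.25 to 4.71 in high drinkers (median 4.40) and from 4.52 to 5.28 in low drinkers (median 4.55), and its highest value was in mouse 6. The difference was -0.29 (-0.49 to -0.08; exact permutation p = 0.00478), and without mouse 6 it was -0.19 (p = 0.0178 by limma). Over the 5 tested genes of the choroid plexus and ependyma list, of which 0 had an unadjusted p under 0.05, the mean level ran from 4.70 to 5.43 in high drinkers and from 5.0 to 6.49 in low drinkers, and 2 of the genes were under 4.5 on average. *Ttr* itself differed by -1.28 on its brightest probeset (-2.70 to 0.13; exact permutation p = 0.0893) and by -0.50 without mouse 6 (-1.34 to 0.34). The other *Sostdc1* probeset gave -0.02 (-0.22 to 0.19). The part of choroid plexus tissue in the *Sostdc1* difference was not tested.

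**Figure D3:**
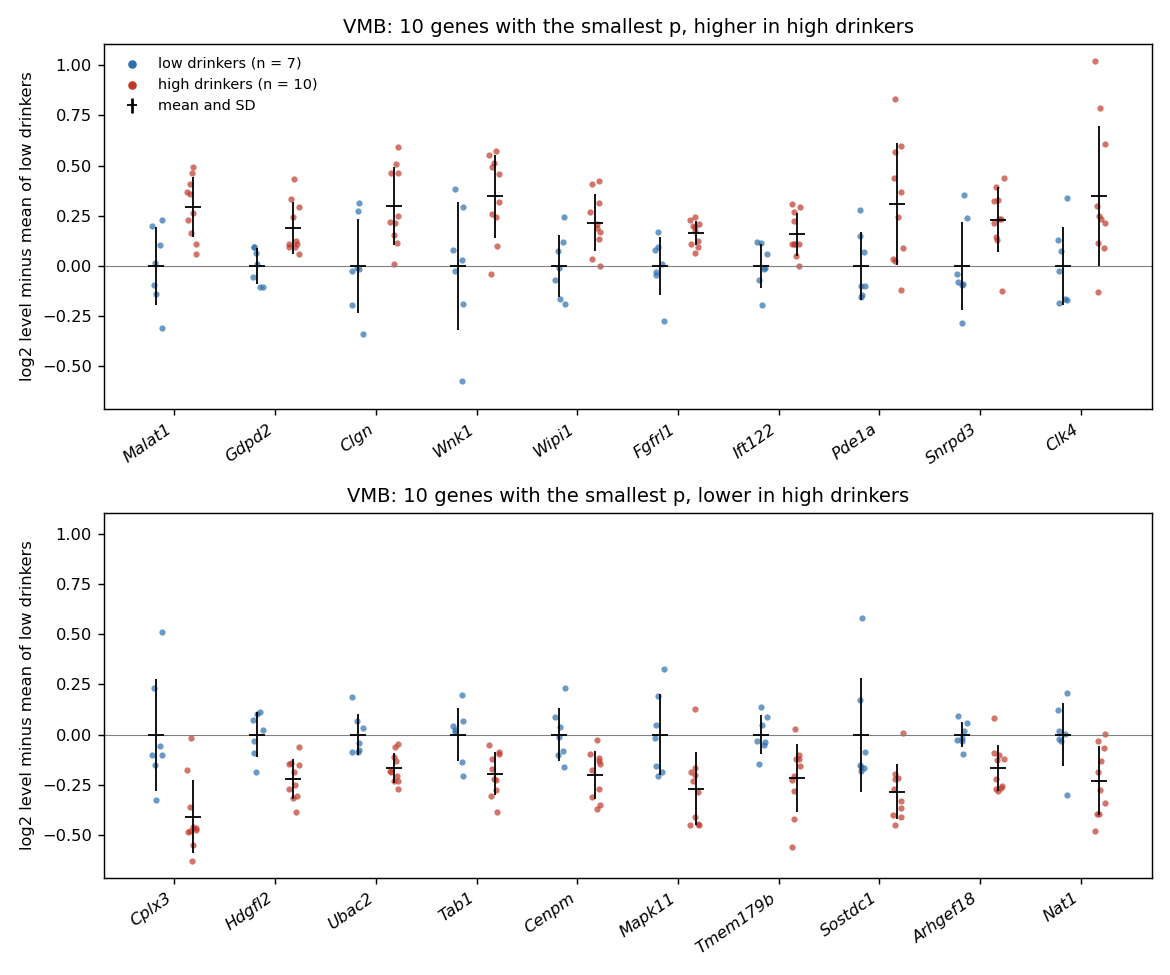
Levels in VMB of the 10 genes with the smallest p in each direction, as the log2 level minus the mean of the low drinkers, with points for single mice and black marks for the mean and SD (n = 7 low and 10 high). High and low drinkers overlap for each of the 20 genes, and Malat1, Clgn and Cplx3 show mean differences of 0.29, 0.30 and -0.41.

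Among the lists of genes by function, 4 more genes had an unadjusted p under 0.05, and their adjusted p was 0.9999 by limma. Over all 11342 genes at 1 probeset each, 1.4% had an unadjusted p under 0.05. These 4 are named because they passed that level, so their p-values are no independent evidence. In the list of 13 genes around the glucocorticoid receptor, through which the stress hormone corticosterone acts, 10 had a difference below 0. Over all genes 42.2% of differences were above 0. The median of the list was -0.05 with all arrays and -0.02 with mice 8 and above, beside -0.01 over all genes with all arrays. *Mt1*, a metallothionein induced by glucocorticoids and metals, ran from 11.2 to 11.4 in high drinkers (median 11.3) and from 11.3 to 11.5 in low drinkers (median 11.4). All 10 high drinkers were below the median of the low drinkers, and the difference was -0.13 (exact permutation p = 0.00267). A dimmer *Mt1* probeset, with means of 4.90 and 4.92, gave -0.02 (-0.16 to 0.11). *Per1*, a clock gene that also responds to glucocorticoids, ran from 6.61 to 6.84 (median 6.72) against 6.70 to 7.08 (median 6.85), a difference of -0.14 (exact permutation p = 0.0112). *Per1* stands in the list of 16 circadian genes as well, of which 7 were above 0 and 9 below 0. The receptor gene itself, *Nr3c1*, differed by -0.05 (-0.21 to 0.12), and the responsive gene *Fkbp5* by -0.07 (-0.18 to 0.03).

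Of 18 cell adhesion genes, *Chl1*, a relative of the L1 adhesion molecule, differed by -0.19 (exact permutation p = 0.0235) and *Itgb1*, the integrin beta 1 chain, by 0.22 (exact permutation p = 0.0673). *Itgb1* ran from 6.70 to 7.58 in high drinkers and from 6.69 to 7.10 in low drinkers, and 3 of 10 high drinkers were above the highest low drinker. Leaving out 1 array took 3 of the 4 genes past an unadjusted p of 0.05. Without low-drinking mouse 14 *Chl1* had p = 0.0691, without low-drinking mouse 6 *Itgb1* had p = 0.0988, and without low-drinking mouse 9 *Per1* had p = 0.0735, by limma. *Mt1* stayed at p = 0.0334 or below by limma. Among the 20 genes of smallest p this happened for *Snrpd3* (p = 0.0530 by limma without low-drinking mouse 11).

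The lists of chromatin, synapse, immune and metabolic genes held 0 genes at an unadjusted p under 0.05. Over all genes 1.4% reached that level, and 42.2% of differences were above 0. Of 17 histone deacetylases and corepressors, 5 had a difference above 0 and 12 below 0, with a median of -0.03 and a range from -0.11 (*Mta1*) to 0.09 (*Hdac1*). Of 17 DNA and histone methylation genes, 8 were above 0 and 9 below 0. The 34 synaptic vesicle genes ran from -0.11 (*Syn1*) to 0.11 (*Dnm3*), with a median of -0.01. The 23 chemotaxis and Toll-like receptor genes ran from -0.16 (*Cx3cl1*, the neuronal chemokine fractalkine) to 0.13 (*Cx3cr1*, its microglial receptor). On average 10 of these 23 genes were under 4.5. The 15 lysosome and glycosaminoglycan degradation genes had a median of 0.01, and *Idua*, the iduronidase gene, differed by -0.11 (p = 0.0579 by limma). Of 13 genes of ethanol and acetaldehyde metabolism 4 were above 0 and 9 below 0, and *Aldh2*, the mitochondrial aldehyde dehydrogenase, differed by -0.03 (-0.16 to 0.10).

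Some lists leaned one way by small amounts, beside 42.2% of differences above 0 over all 11342 genes. Of 28 proteasome genes, 22 were above 0, with a median of 0.02. Of 29 oxidative phosphorylation genes, 20 were above 0, with a median of 0.01, and of 22 cytoplasmic ribosomal protein genes 17 were below 0, with a median of -0.02. Of 15 immediate early genes, which mark recent neuronal activity, 11 were below 0, with a median of -0.04, and *Fos* differed by 0.06 (-0.19 to 0.32). Genes within these lists vary together from array to array, so the counts of one sign are descriptions and no test was made of them.

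Lists of glial and vascular cells lay close to the median of all genes. Medians were 0.01 for 13 oligodendrocyte and myelin genes, -0.0037 for 13 astrocyte genes, 0.04 for 12 microglia genes and -0.02 for 13 endothelial and mural genes. Lists of neighbouring tissue had lower medians, at -0.18 for the cerebellum, -0.11 for 7 thalamus and dorsal midbrain genes and for 5 cortical excitatory genes, and -0.10 for the choroid plexus and ependyma. All 5 cortical genes and 9 of 10 cerebellar genes were below 0, while 42.2% of all genes were above 0. The array means of the cortical list ran from 4.97 to 5.88 in high drinkers and from 5.23 to 5.88 in low drinkers, and 2 of its genes were under 4.5 on average. Single arrays set some of these medians. Without low-drinking mouse 14 the cerebellar median was 0.00016, and without low-drinking mouse 6 the choroid plexus median was -0.0158. The thalamus and dorsal midbrain median was 0.0038 without low-drinking mouse 5 and -0.18 without low-drinking mouse 9, and the cortical median was -0.06 without mouse 9. With the cerebellar level as a covariate, 360 probesets had an unadjusted p under 0.05 and 0 passed the adjustment.

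**Figure D4:**
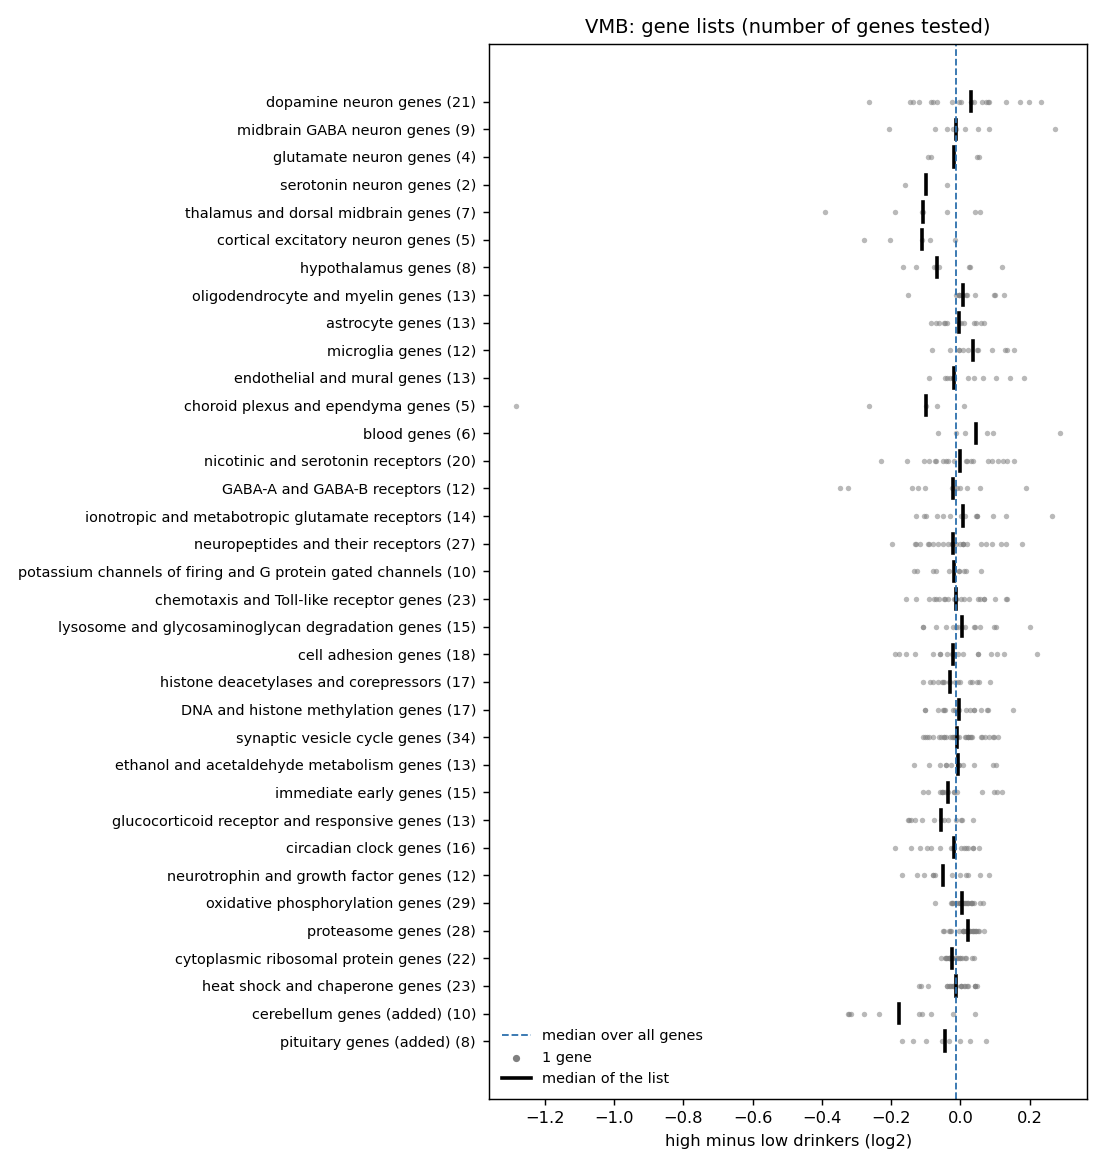
Difference between high and low drinkers in VMB (log2) for each tested gene of the lists, 1 grey point per gene, with a black bar at the median of the list and a dashed line at the median over all 11342 genes. Most medians lie close to the dashed line; the cerebellum list has its median at -0.18, and Ttr, at -1.28, is the lowest point.

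The count of small p-values depended strongly on the arrays of mice 1 to 7. With mice 8 and above only (6 high and 5 low drinkers), a subset chosen once the data had been seen, 2800 probesets had an unadjusted p under 0.05, which is 14.1% of those tested, against 1.45% with all 17 arrays. Of these, 1248 were higher in high drinkers (6.3%) and 1552 lower (7.83%), and 195 were among the 287 of the full set. On the first principal component of all 17 arrays, the high drinkers of this subset ran from 3.24 to 25.95. Its low drinkers ran from -11.15 to 9.32, and the part of this component in the count was not tested. Again 0 probesets had an adjusted p under 0.01 (0%), and the smallest adjusted p was 0.211 by limma. The probesets at that value were those of *Gjc3*, an oligodendrocyte gap junction protein (0.49), *Elf1*, an ETS transcription factor (0.35), and *Cplx3* (-0.44, 95% interval -0.60 to -0.29). *Gjc3* had a difference of 0.18 (p = 0.341 by limma) with all 17 arrays, whereas *Cplx3* differed by -0.41 (p = 0.000892 by limma).

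Within the dopamine list the same mice gave 4 genes of 21 at an unadjusted p under 0.05, all lower in high drinkers, beside 13% of all genes. These were *Drd2* (-0.30, p = 0.0177), *Pitx3* (-0.23, p = 0.00154), *Lmx1b* (-0.20, p = 0.0245) and *Otx2* (-0.30, p = 0.0436), by limma. The last 3 encode transcription factors of dopamine neurons. *Lmx1b* was dim, with means of 4.02 and 4.04 over all high and low drinkers, and none of the 4 had an unadjusted p under 0.05 with all arrays. Other transcription factors of the list went both ways in these mice. *Foxa1* was at 0.25, *Foxa2* at 0.04, *Nr4a2* at 0.03 and *Lmx1a* at 0.0047, while *Sox6* was at -0.11 and *En2* at -0.04. The median of the list was 0.0047. *Slc6a3* and *Th* differed by 0.16 and 0.06 in these mice, in the same direction as before. Other lists held shares as large at that level, with 4 of 14 glutamate receptor genes, 4 of 15 lysosome and glycosaminoglycan degradation genes, 5 of 20 nicotinic and serotonin receptor genes, 3 of 12 microglia genes and 3 of 15 immediate early genes. In contrast, 0 of 22 ribosomal protein genes and 0 of 17 histone deacetylases and corepressors reached it. The median of the immediate early genes was -0.12, beside -0.04 with all arrays. *Malat1*, *Clk4* and *Snrpd3* differed by 0.35, 0.49 and 0.30, with unadjusted p of 0.00290, 0.00424 and 0.00810 by limma. *Ift122* (0.07, p = 0.281) and *Fgfrl1* (0.10, p = 0.105) had smaller differences than in the full set.

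**Figure D5:**
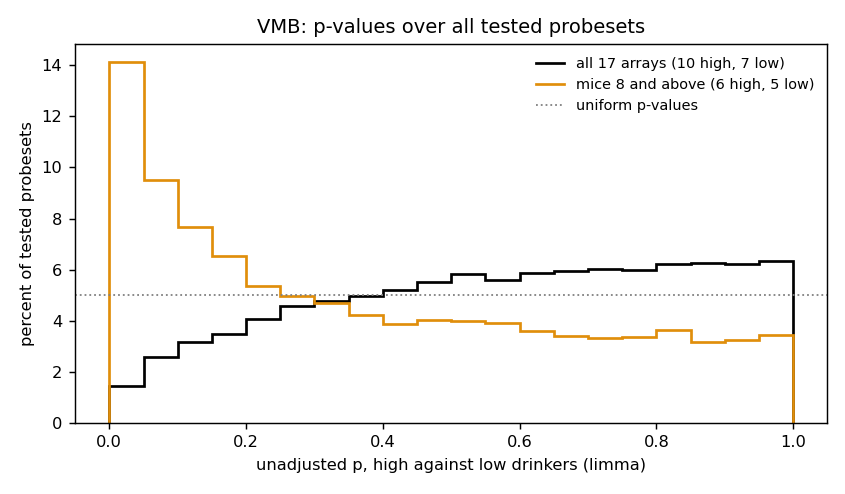
Percent of the 19815 tested VMB probesets in each bin of unadjusted limma p for high against low drinkers, with all 17 arrays in black and with mice 8 and above in orange; the dotted line marks the 5% that uniform p-values give. The lowest bin holds 1.45% with all arrays and 14.1% with mice 8 and above.

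High and low drinkers of the same mouse numbers were compared in the other regions to see whether the VMB differences were shared. PFC has no array of low-drinking mouse 6 among those used, so 6 low drinkers entered there against 7 in VMB. Of the tested probesets, 0 passed an adjusted p under 0.01 in NAc or in PFC, and 552 (2.79%) and 679 (3.43%) had an unadjusted p under 0.05. The difference between high and low drinkers did not differ detectably between VMB and NAc, with 0 probesets at an adjusted p under 0.01 (0%) and 452 at an unadjusted p under 0.05 (2.28%). Between VMB and PFC the counts were 0 (0%) and 464 (2.34%). Among the named genes, *Cplx3* differed by 0.00 in NAc (-0.26 to 0.26) and by 0.05 in PFC (-0.20 to 0.31), beside -0.41 in VMB. The test of that difference between regions gave an unadjusted p of 0.0198 against NAc and 0.00977 against PFC by limma, and neither passed the adjustment. *Cplx3* was named for its small p in VMB, so these p-values are no independent evidence. Some named genes had smaller p by limma, among them *Mapk11* (0.00396) and *Ift122* (0.00462) against NAc. Against PFC they included *Htr3b* (0.000799), *Tab1* (0.00235) and *Clk4* (0.00289), and none passed the adjustment. *Clk4*, higher in VMB, differed by -0.24 in PFC (-0.47 to -0.01). *Htr3b*, lower in VMB, was higher in high drinkers in PFC by 0.15 (0.02 to 0.27) and by 0.06 in NAc (-0.10 to 0.22). Without mouse 6, the VMB differences of *Htr3b* and *Cplx3* were -0.15 and -0.32, and the comparison with PFC was not repeated without it for single genes. *Mt1* had nearly the same difference in PFC, -0.16 (-0.28 to -0.03), as in VMB, and -0.01 in NAc (-0.13 to 0.10). *Malat1* was above 0 in NAc at 0.06 (-0.19 to 0.31) and in PFC at 0.11 (-0.32 to 0.53). *Bdnf*, which hardly differed in VMB, differed by -0.29 in NAc (-0.53 to -0.04), with an adjusted p of 0.9997 by limma. For *Bdnf* the test between VMB and NAc gave an unadjusted p of 0.0691 by limma, which did not pass the adjustment. For *Slc6a3* the differences were 0.06 in NAc and 0.12 in PFC, where the gene was at 3.72 to 4.24, under the filter level on each array.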

How the data were processed

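The authors deposited RMA signals on the log2 scale for 22626 probesets of an Affymetrix mouse expression array. The submitters' notes name GCOS and RMA without versions. The genome build of the annotation is not given in the sources used here, and probesets were named from the platform annotation. No normalization was added, except in an alternative.

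Groups were fixed by mouse number from the study's plot of intake per mouse, because the labels hold no intake. The members, gene lists and tests were chosen with earlier results of these data known. A PFC array with conflicting labels (1 of 57) entered only the filter.

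Following the methods, probesets under 4.5 on each of the 57 arrays were removed. This kept 19815 and removed 2811. Of those kept, 18138 carry 1 gene symbol, 558 several and 1119 none. High minus low drinkers was fitted with limma 3.58.1 in R 4.3.3 and adjusted by Benjamini-Hochberg over all tested probesets. The limit was an adjusted p under 0.01, the 1% false discovery rate of the methods. The methods correlated expression with intake, which was not done here. For named genes, a two-sided exact permutation test ran over all 19448 splits of 10 and 7 arrays. The number of mice limits precision. Each array is 1 mouse, and litters and handling days are not given.

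Named genes are those with the smallest p, 10 in each direction at a mean level of 4.5 or more, list members with an unadjusted p under 0.05 (at most 3 a list), and *Th*, *Ddc*, *Slc6a3*, *Slc18a2*, *Drd2*, *Slc17a6*, *Gad1*, *Htr3b*, *Bdnf* and *Rab3a*. *Epm2aip1*, *Ttr*, *Gjc3*, *Elf1* and list members at the ends of a range were named after their values were seen. Gene lists (33, with cerebellum and pituitary lists added after the data were seen) took the brightest probeset of each gene and were described by counts and medians, with no test. The limma fit of high against low drinkers was tested on simulated data with known differences. That simulation drew independent noise of equal spread on each array, so it does not cover the differences between arrays described above.

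Regions were compared by an interaction term in limma, on arrays of the same mouse numbers, except that low-drinking mouse 6 has an array in VMB and none in PFC here. Arrays of the same mouse number in VMB and another region deviated together only weakly on average. The mean correlation of deviations from the group means was 0.111 for NAc (10 of 17 over 0.1, range -0.52 to 0.63). For PFC it was 0.00885 (5 of 16, range -0.21 to 0.22). Same-numbered arrays were taken to come from the same mouse, so the fit with the mouse as a block was run too. Alternatives covered the filter, quantile normalization, array weights, the first principal component, empirical Bayes with trend and robust options, 1 probeset per gene, each array left out, and, chosen after the data were seen, mice 8 and above only, a term for mice 1 to 7, and the cerebellar level as a covariate.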

Additional observations from a re-analysis of the deposited data

Results flagged for a closer look

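For each named gene and gene list, the highest and lowest mouse of a group was compared with its neighbour, and values whose gap took up more of the range than Dixon's 95% critical value are given here. Chance gives such a value in about 1 group in 20, and 10 were found in 136 groups of values. Low-drinking mouse 6 accounts for 4 of them. Its choroid plexus and ependyma list had a mean level of 6.49, with the next low drinker at 5.35, and its *Htr3b* level was 4.56, with the next at 4.11. The same mouse had the lowest mean level among low drinkers for oligodendrocyte and myelin genes, 9.79 against 9.98 for the next, and for lysosome and glycosaminoglycan degradation genes, 7.17 against 7.27.

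Among high drinkers, *Mapk11* was at 6.10 in mouse 1, with the next at 5.81, and *Arhgef18* at 7.71 in mouse 13, with the next at 7.54. Both of these values lay against the direction of the group difference. The mean level of circadian clock genes was lowest in high-drinking mouse 2 at 6.95, and that of oxidative phosphorylation genes was lowest in high-drinking mouse 4 at 10.7. Blood genes were lowest in low-drinking mouse 5 at 4.12 and in high-drinking mouse 19 at 4.04.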

How the results depend on the processing

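The count of 0 probesets with an adjusted p under 0.01 held under each alternative run, each array left out included. The count of 287 probesets at an unadjusted p under 0.05 did not. It was 120 with a mean level of 6 or more required, 1487 with array weights, 449 with the first principal component as a covariate, 176 with 1 probeset per gene (11342 tested), 2800 with mice 8 and above only and 703 with a term for mice 1 to 7. At an unadjusted p under 0.01 it was 20. No filter and quantile normalization gave 366 each. Leaving out each array in turn gave 205 to 658, with 658 without high-drinking mouse 1 and 568 without low-drinking mouse 5. As shares of the probesets tested, the main count was 1.45%. It was 1.11% with a mean level of 6 or more (10765 tested) and 1.55% with 1 probeset per gene. The cause of the changes in the count was not tested.

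Of 33 named genes, 30 kept the sign of their difference under each alternative, including the 20 of smallest p. The others differed by about 0. *Gad1* reversed to -0.0091 with array weights, to -0.0012 with the first principal component and to -0.0356 with mice 8 and above, and its range over left-out arrays was -0.0289 to 0.0421. *Bdnf* reversed to 0.0241 with array weights and to 0.0643 with mice 8 and above, and its range was -0.0453 to 0.00117. *Rab3a* reversed to -0.0062 with array weights, to -0.0032 with mice 8 and above and to -0.0015 with the term for mice 1 to 7, and its range was -0.0148 to 0.0449. With mice 8 and above the medians moved to -0.041 for lysosome and glycosaminoglycan degradation genes, to 0.0377 for histone deacetylases and corepressors, and to -0.115 for immediate early genes. In those mice the medians of 8 of 35 lists changed sign, among them thalamus and dorsal midbrain (0.04), endothelial and mural (0.09) and blood genes (-0.05).

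No paired analysis was possible for high against low drinkers in VMB because the groups share no mouse. For the comparison between regions, the fit with the replicate block, which used mice with arrays in both regions, gave 585 probesets at an unadjusted p under 0.05 against NAc and 435 against PFC, with 0 at an adjusted p under 0.01 in both, so the block changed no call.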
